A study of Mus musculus with 12 samples.

Results

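The largest B cell clone in the spleen of this series was followed here. It held 977 cells, from a sort for antibody-secreting cells, that carried 1 heavy chain rearrangement of IGHV9-3 to IGHJ2. They were 33.8% of the 2889 cells with exactly 1 productive heavy chain contig in 1 spleen receptor library (exact 95% binomial interval 32.1 to 35.6%). The 6 receptor libraries of the series held 8415 such cells in all. Cells were placed in a clone when they shared the V gene, the J gene and the translated CDR3 of the heavy chain. The members were chosen by measured values, the V gene, J gene, CDR3 and number of cells of the clone, so these are descriptions and carry no test. All intervals in this text cover counting error only.

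Antibody-secreting cells (ASCs) were sorted in the study from 3 organs, thymus, spleen and bone marrow, of mice of both sexes. The mice were of the Prdm1-eYFP reporter strain on the C57BL/6 background and 3 months old. Cells of 3 mice were pooled for each sort and gated as B220+/-, CD138HI, IgD-, CD90.2- and Prdm1-eYFP+. For each organ and sex there were 1 receptor (VDJ) library and 1 expression library, made with droplet 5′ chemistry, 12 libraries in all. The mouse from which each cell came is not given, so the clone and a mouse of the pool cannot be told apart. No group of this report was replicated: every comparison sets cells of 1 library beside other cells of the same library, and cells are not replicates, so no p-value is given.

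ASCs are plasmablasts and plasma cells, the end stage of the B cell lineage, and each secretes the antibody of 1 heavy and 1 light chain. A heavy chain is assembled from V, D and J gene segments, and the bases trimmed or added at the joints make the CDR3 close to unique to a founder cell. Descendants keep that joint. They may switch the constant gene from IgM to IgG or IgA and may collect point mutations in the V region, which happens above all in germinal centres. The spleen also holds IgM plasmablasts that form outside germinal centres and carry few mutations.

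The sequences below define the clone and show how close it lies to the germline. The V region of the most frequent heavy sequence is printed first, 285 bases from framework 1 to the end of framework 3, 5′ to 3′, with CDR1 and CDR2 in capitals. Ighv9-3 (ENSMUSG00000096459) lies at chr12:114140692-114141122 on the minus strand of GRCm38 in GENCODE M21.
Heavy V region: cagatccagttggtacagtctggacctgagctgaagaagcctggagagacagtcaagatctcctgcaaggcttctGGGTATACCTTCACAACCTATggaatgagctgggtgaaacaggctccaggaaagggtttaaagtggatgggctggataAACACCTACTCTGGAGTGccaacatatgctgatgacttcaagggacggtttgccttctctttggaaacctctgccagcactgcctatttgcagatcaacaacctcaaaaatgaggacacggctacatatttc

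The heavy CDR3 of 42 bases (14 codons) is the mark by which the clone was followed. It is set beside the germline D and J segments that matched it, Ighd3-2 (chr12:113448214-113448229, minus strand) and Ighj2 (chr12:113429468-113429567, minus strand). Capitals mark the bases of the CDR3 that matched none of the 3 segments, and in the germline lines the bases found in the CDR3.
Heavy CDR3: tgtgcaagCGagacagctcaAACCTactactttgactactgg
Germline Ighd3-2: AGACAGCTCAggctac
Germline Ighj2: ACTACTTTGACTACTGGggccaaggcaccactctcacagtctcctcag

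Of the 294 bases of germline Ighv9-3 from framework 1 on, 293 were equal in the clone. The V segment gave 8 bases of the CDR3. Then followed 2 unmatched bases, 10 of the 16 bases of Ighd3-2, 5 unmatched bases and 17 bases of Ighj2, which had lost none at its start. The comparison was made without gaps, so a base at a joint that happens to equal the germline counts as germline.

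The light chain was not used to choose the clone. Its V region of 261 bases is printed with CDR1 and CDR2 in capitals, followed by its CDR3 of 33 bases (11 codons) with the bases from the J segment in capitals. Igkv5-39 (ENSMUSG00000076569) lies at chr6:69900424-69900977 on the minus strand and Igkj5 at chr6:70723886-70723927 on the plus strand.
Light V region: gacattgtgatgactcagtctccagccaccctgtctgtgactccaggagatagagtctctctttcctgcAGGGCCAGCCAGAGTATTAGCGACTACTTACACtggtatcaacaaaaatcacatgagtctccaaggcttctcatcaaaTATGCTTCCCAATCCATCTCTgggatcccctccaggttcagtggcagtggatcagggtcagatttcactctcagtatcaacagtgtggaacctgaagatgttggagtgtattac
Light CDR3: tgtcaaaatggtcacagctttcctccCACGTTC

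All 287 germline bases of Igkv5-39 were equal in the most frequent light sequence, and its last 35 bases were those of Igkj5. The clone thus carried a germline light chain and a heavy chain whose V region had no base change.

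The receptor library that holds the clone is labelled female spleen, but 2794 of its 2893 barcodes (96.6%) were in the filtered gene expression list labelled male spleen and 64 were in the list labelled female spleen. The name of its deposited table also gives male. Every receptor library shared more barcodes with the expression library of its own tissue and the other sex label than with any other. The share ran from 49.9% in the thymus library labelled male to 100% in the spleen library labelled male. In the expression library linked in this way the clone's cells held Ddx3y at 80.0 and Eif2s3y at 77.3 CPM, both on the Y chromosome, and Xist, which female cells express, at 1.68 CPM. CPM is the UMIs of a gene outside immunoglobulin genes, summed over the cells of a group and scaled to a common total, where a unique molecular identifier (UMI) marks 1 captured molecule. The library labelled female spleen is therefore named by its label throughout, and its expression is read from the library labelled male spleen.

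Of the clone, 899 cells were in that expression list and 842 passed the cell filter. Of the 1912 other cells with 1 heavy contig, 1891 were in the list and 1788 passed. The 842 cells held 2974291 UMIs outside immunoglobulin genes and the 1788 held 6512713. The median per cell was 2940.5 UMIs and 1430 genes in the clone and 2939.5 UMIs and 1445 genes in the others. The medians were alike, but the clone's lower quartile was shallower, at 1838.5 UMIs and 893 genes against 1978.25 and 1019. The median mitochondrial share was 4.75% and 4.90%.

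The expression library was compared with the receptor table cell by cell. Ighv9-3 was the leading heavy V gene in 872 of the 899 clone cells (97.0%) and Igkv5-39 the leading light V gene in 856 (95.2%). The members were chosen by this heavy V gene, so the first share does not check membership. Ighv9-3 also led in 105 of the 1891 other VDJ cells (5.55%) and in 5645 of the 8487 barcodes without a heavy contig (66.5%). The median was 1345 UMIs of Ighv9-3 in a clone cell and 58 in another VDJ cell. RNA outside cells was rich in the clone's message: over 705868 barcodes outside the filtered list, Ighv9-3 took 40.1% of the UMIs of heavy V genes and Igkv5-39 19.4% of those of light V genes.

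The share of a cell's UMIs that could come from this free RNA was estimated from light V genes foreign to the cell. Its median was 23.6% in the clone and 21.7% in the other cells that passed the filter. An estimate under 50% was found in 658 of 842 clone cells (78.1%) and in 1622 of 1788 others (90.7%). Of the 899 clone cells in the expression list, 711 lay under 50% and had a median of 509 UMIs in the heavy contig. The other 188 had a median of 63. Among the 1891 other VDJ cells in the list, 1709 (90.4%) lay under 50%, against 79.1% of the clone. The size and share of the clone given above count barcodes on both sides of this limit. Whether each of them held an ASC was not tested.

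The 2889 cells fell into 1167 clones, of which 927 held 1 cell and 45 held at least 5. After the 977 came a clone of IGHV3-5 with 63 cells, then IGHV1-80 with 52, IGHV1-82 with 43 and IGHV6-3 with 31. The clone was 15.5 times the size of the next. Just outside the rule stood 2 sets of 15 cells that also used IGHV9-3 and IGHJ2. IGHV9-3 was carried by 1051 cells, 74 of them outside the clone. Of these, 53 were related cells, with the same V gene, J gene and CDR3 length and another CDR3, and 49 of the 53 differed by 1 amino acid.

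**Figure D1:**
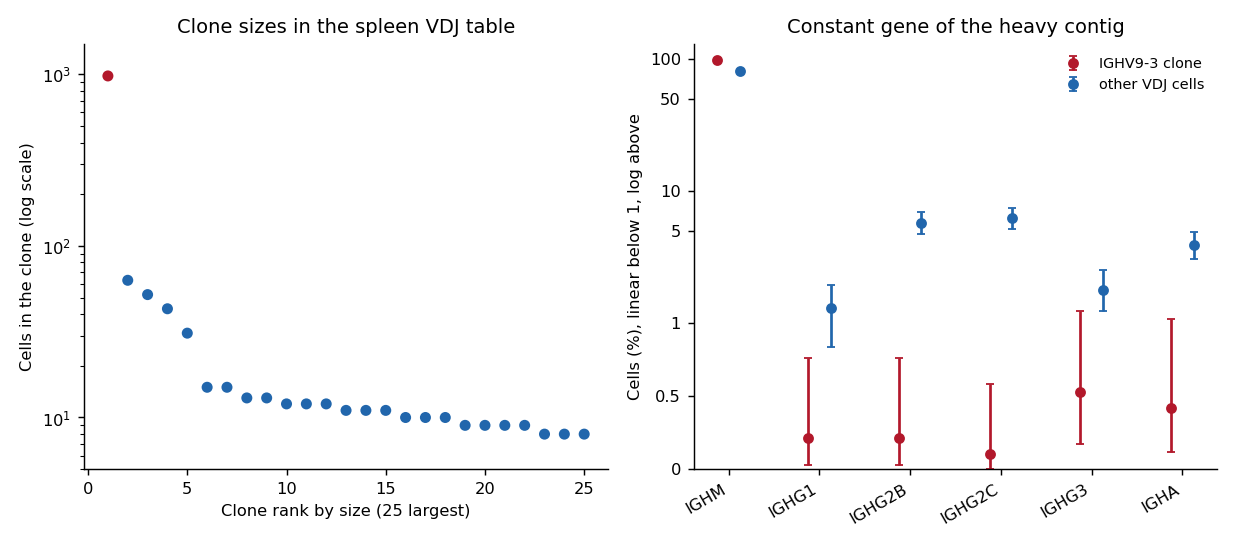
Left: cells (log axis) in each of the 25 largest clones of the spleen receptor table, by rank; the IGHV9-3 clone (red) holds 977 cells and the next 63. Right: percent of cells with each constant gene among those with one called, in the clone (red) and in the other VDJ cells (blue), with exact 95% binomial intervals, on an axis that is linear below 1 and logarithmic above; each switched gene is lower in the clone.

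Almost all cells of the clone made IgM, the isotype of the first antibody response. Of the 952 clone cells with a constant gene called, 938 had IGHM (98.5%, interval 97.5 to 99.2%). The other VDJ cells had IGHM in 1501 of 1851 (81.1%, 79.2 to 82.9%). The intervals do not overlap. The 14 switched clone cells comprised 5 with IGHG3, 4 with IGHA, 2 with IGHG1, 2 with IGHG2B and 1 with IGHG2C, a share of 1.47% (0.806 to 2.46%) against 18.9% (17.1 to 20.8%) in the others.

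The clone was at one end among the large clones, but not alone there. Switched cells were 39 of 60 (65.0%) in the IGHV3-5 clone, 1 of 51 (1.96%) in the IGHV1-80 clone, 11 of 42 (26.2%) in the IGHV1-82 clone and 25 of 31 (80.6%) in the IGHV6-3 clone. The interval of the IGHV1-80 clone, 0.0496 to 10.4%, spans the value of the IGHV9-3 clone. Read from the leading heavy constant gene of the expression library, the share of IgM was 98.3% in the clone and 87.2% in the other cells.

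The light chain was nearly as uniform as the heavy chain. A light contig was found in 971 of the 977 cells, and 938 of them used IGKV5-39 (96.6%, 95.3 to 97.6%). The same V gene, J gene and CDR3 were shared by 904 (93.1%). In the other VDJ cells IGKV5-39 was found in 171 of 1864 (9.17%, 7.90 to 10.6%) and the clone's exact light rearrangement in 91 (4.88%). These cells include the 53 related cells, 44 of which carried IGKV5-39. The base sequence of the IGKV5-39 chain was the same in 848 of 938 clone cells (90.4%).

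The 33 clone cells with another light chain used 11 V genes, and 13 clone cells carried a lambda chain. They differed from the rest in depth. Their heavy contigs had a median of 71 UMIs, against 330 in clone cells with IGKV5-39, and their estimated free RNA share had a median of 47.1% against 24.2%. Whether free RNA gave them their heavy contig was not tested.

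Mutation was scarce in the clone. The V region had no difference from germline in 927 of 977 cells (94.9%, 93.3 to 96.2%). In the other cells it had none in 1065 of 1912 (55.7%, 53.4 to 57.9%). The gap held within IgM, with 900 of 938 clone cells (95.9%) and 852 of 1501 other cells (56.8%). Among large clones it had a parallel: all 63 cells of the IGHV3-5 clone were at germline, while 5 of 52, 4 of 43 and 0 of 31 were in the IGHV1-80, IGHV1-82 and IGHV6-3 clones. Germline sequence and switching were thus paired differently in the clones: the IGHV3-5 clone was at germline and mostly switched, and the IGHV1-80 clone was mutated and mostly IgM. Differences were counted without gaps against the called V gene. In other cells with IGHM they reached 78 bases, with an upper quartile of 4, so not every difference from germline need be a mutation.

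The same heavy sequence from framework 1 to framework 4, 358 bases, was found in 901 of the 977 cells (92.2%). One difference was found in 41 cells, 2 in 14, 3 in 13, 4 in 3, 5 in 4 and 6 in 1. These 76 cells held 49 other sequences, of which 10 were shared by at least 2 cells and 37 cells in all. Their heavy contigs were as deep as the rest, with a median of 354.5 UMIs against 308, and their free RNA estimate was no higher (20.99% and 24.6%). The table gives no error per base, so sequences seen in 1 cell are less certain than the shared ones.

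Related cells extended the same pattern. Of the 53, 32 differed from the most frequent sequence by 1 base, 10 by 2, 5 by 3, 4 by 4, and 1 each by 5 and 7. IGKV5-39 was the light chain of 44 of them (83.0%). The CDR3s of the most frequent other sequences with a change in the CDR3 are printed, as the changes that most cells share, with the changed base in capitals. Positions are counted from 1 at the first base of framework 1, with the base of the most frequent sequence first.
Variant 1, A320C: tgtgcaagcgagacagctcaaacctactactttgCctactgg
Variant 2, A323T: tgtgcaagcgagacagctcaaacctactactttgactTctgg
Variant 3, C312T: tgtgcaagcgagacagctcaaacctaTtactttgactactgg
Variant 4, C294T: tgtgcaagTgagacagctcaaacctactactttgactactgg

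Variants 1 and 2 change an amino acid and so fall among the related cells, while variants 3 and 4 are silent and stay in the clone. Variant 1 was found in 12 cells, 6 with IGHM and 6 with IGHG1, and 11 of the 12 carried IGKV5-39. Variant 2 was found in 9 cells, variant 3 in 8 and variant 4 in 5, all with IGHM. A sequence with C172T, C233A and G246A, outside the CDR3, was also found in 5 cells. In all, 87 different substitutions were counted over the clone and the related cells, 54 of them replacement and 33 silent, and 41 were in at least 2 cells.

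The most frequent substitutions were A323T in 16 cells and A320C in 15, both in CDR3, and G167C in 14, in CDR2. G167C occurred on several backgrounds. With T14G it was found in 3 cells, all with IGHG3. With T14G, A220T, C252T and T264C it was found in 3 cells, 1 with IGHM, 1 with IGHG3 and 1 with IGHA. With G30A and G78T it was found in 4 cells, all with IGHM. Within the clone, different substitutions per 100 bases ran from 5.33 in framework 1 to 18.4 in framework 3 and 35.5 in framework 4. The rule removes replacement changes from the clone's CDR3, which had 16.7 in the clone and 61.9 with the related cells. Of the 11 substitutions of the clone in framework 4, only A333G was in more than 1 clone cell. The value of framework 4 thus rests mostly on changes seen in 1 cell, which are less certain.

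**Figure D2:**
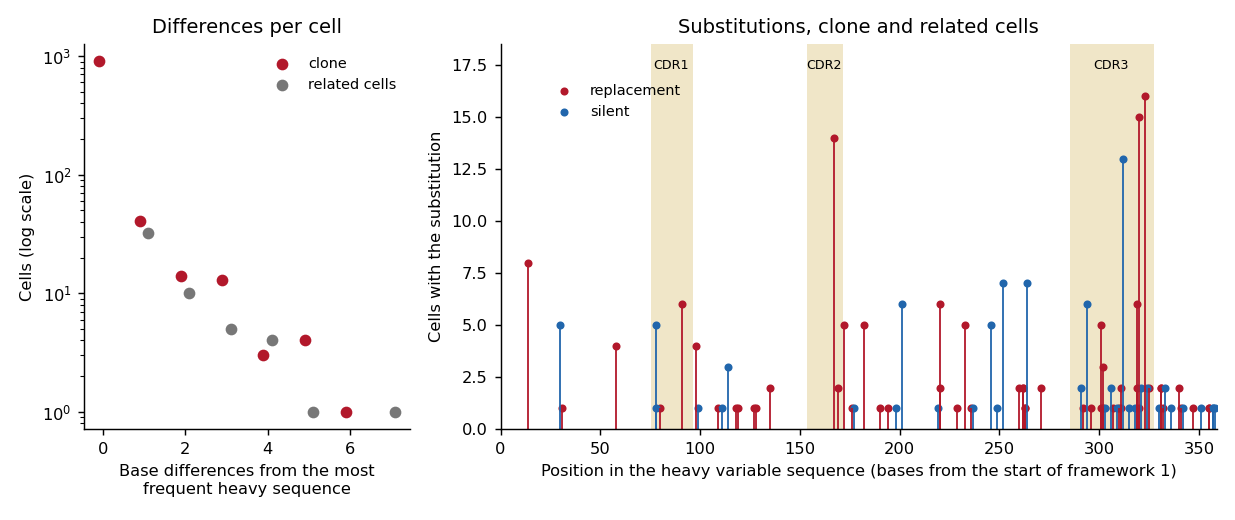
Left: number of cells (log axis) by base differences from the most frequent heavy sequence, for the clone (red) and the related cells (grey); 901 clone cells have none. Right: each substitution in the clone and the related cells by position, in bases from the start of framework 1, with the number of cells that carry it, red for replacement and blue for silent, and the CDRs shaded; the tallest lines, at 16 and 15 cells, lie in CDR3.

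Switched cells were concentrated among the cells with a changed heavy sequence. In the clone, 4 of 885 cells with the most frequent sequence were switched (0.452%, 0.123 to 1.15%) and 10 of 67 with another sequence (14.9%, 7.40 to 25.7%). Of the related cells 8 of 46 were switched (17.4%, 7.82 to 31.4%). Few sequences gave many of these cells: variant 1 gave 6 of the 8 switched related cells. The sequence with T14G and G167C gave 3 of the 10 switched clone cells. The one that adds A220T, C252T and T264C gave 2. The intervals treat such sister cells as independent, which they are not. Seen the other way, 6 of the 14 switched clone cells had a germline V region (42.9%, 17.7 to 71.1%), against 95.9% of its IgM cells. In the other VDJ cells the 2 isotype classes lay closer, with 56.8% of IgM and 50.6% of switched cells at germline.

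The clone's rearrangement was also found in bone marrow. In the receptor library labelled female bone marrow, 10 of 1743 cells had the same V gene, J gene and CDR3. Of these, 9 had the most frequent heavy sequence and 1 differed by 1 base. By constant gene 6 were IGHM and 4 IGHA. All 6 cells with a light contig used IGKV5-39, and in 5 of them the light CDR3 was that of the clone, all IGHM cells. Of the 4 IGHA cells 3 had no light contig and 1 had another light CDR3. The heavy contigs held 150 to 5664 UMIs. The 4 IGHA cells held 150, 267, 554 and 742 UMIs, and the 6 IGHM cells 771 to 5664.

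IGHA was the constant gene of 4 of these 10 cells (40.0%, 12.2 to 73.8%) and of 97 of the 1566 other cells of that library with one called (6.19%, 5.05 to 7.50%). The intervals do not overlap, but the share rests on 4 cells, none with the clone's light CDR3. The tables of the 2 libraries had 11 barcodes in common, 1 of them on a clone cell in both. In the other 4 receptor libraries no cell had the rearrangement, which allows shares of up to 0.240% in the spleen library labelled male, 0.290% in the bone marrow library labelled male, and 0.329% and 0.512% in the thymus libraries labelled female and male. IGHV9-3 was used by 0.853 to 3.67% of cells in the other 5 libraries.

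Summed over cells, the clone held ASC markers at levels near those of the other VDJ cells. Prdm1 and Xbp1, the transcription factors of the ASC state, stood at 799 and 3554 CPM in the clone and 797 and 3476 CPM in the other VDJ cells. Sdc1, which encodes CD138, was at 405 and 390 CPM. Of the 14 ASC markers 7 were above and 7 below a ratio of 1, and none passed the fold defined next. They summed to 78103 CPM in the clone, 71438 in the others and 85251 in free RNA. The level alone thus does not show that a given barcode holds an ASC. All 8 neutrophil markers were at 0 in the clone, T cell markers summed to 5.04 CPM (7.68 in the others) and NK cell markers to 0.672 (0.921). The 13 B cell markers, some of which ASCs keep, summed to 2072 CPM (2247 in the others). They held 6164 UMIs in the clone, and 1 of the 13 was at 0.

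Outside immunoglobulin genes the clone was close to the other VDJ cells. A gene was called when its CPM differed at least 1.5-fold and the exact 95% interval of the ratio lay beyond 1.5. Of 9317 genes with at least 50 UMIs, 30 were higher in the clone (0.322%) and 94 lower (1.01%). Against the 1407 other cells with IGHM, 22 of 9021 genes were higher (0.244%) and 64 lower (0.709%). The median log2 ratio over all genes was -0.05, with 3951 genes above a ratio of 1 and 5366 below. One library gives no replicate check for any of these genes.

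**Figure D3:**
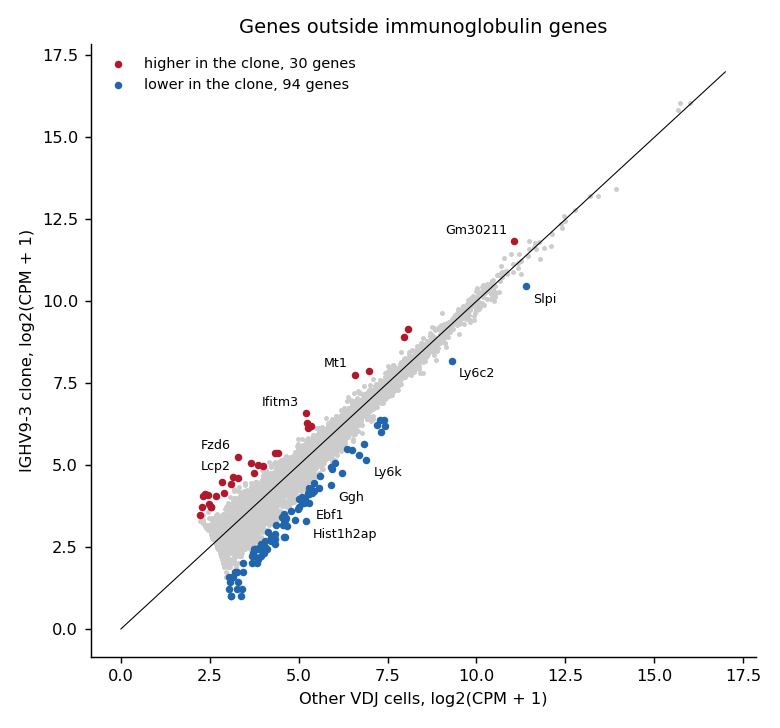
Each point is 1 of 9317 genes, with log2(CPM + 1) in the other VDJ cells on the x axis and in the IGHV9-3 clone on the y axis; the line marks equal values. Coloured points are the 30 genes called higher (red) and the 94 called lower (blue); most points lie along the line, and most called genes are of low CPM.

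The genes that led the clone were of low to moderate level. Fzd6, a Frizzled receptor of Wnt ligands (chr15:39006034-39038188, plus strand), was at 37.3 CPM in the clone and 8.75 CPM in the other VDJ cells, a ratio of 4.26 (interval 3.07 to 5.98). In the 4 other large clones it was at 27.4, 14.9, 5.19 and 11.3 CPM, in the order IGHV3-5, IGHV1-80, IGHV1-82 and IGHV6-3, and in free RNA at 9.09 CPM. The clone was above each, and the IGHV3-5 clone was nearest. Rab20, a small GTPase, was at 21.5 against 6.14 CPM and Lcp2, the adaptor SLP-76 of immune receptor signalling, at 23.5 against 8.75 CPM. Both overlapped the other clones, which reached 21.9 and 34.0 CPM.

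Ifitm3, an interferon-induced membrane protein that restricts virus entry (chr7:141009586-141010770, minus strand), was at 95.5 CPM in the clone and 35.6 in the others, a ratio of 2.68 (2.25 to 3.20). The other large clones held 22.6 to 46.7 CPM and free RNA 62.0 CPM. Mt1, a metallothionein that binds zinc and copper (chr8:94179082-94180327, plus strand), was at 216 against 95.4 CPM, a ratio of 2.27 (2.03 to 2.54). The other large clones held 11.3 to 93.02 CPM and free RNA 174 CPM. Cyb561a3, a cytochrome b561 family reductase, was at 77.3 against 36.5 CPM, with 20.8 to 39.6 CPM in the other clones and 24.5 CPM in free RNA. Its UMIs were spread over 156 clone cells, the 10 highest holding 16.5% of them.

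Further genes of this set were Sco2, a copper chaperone of cytochrome c oxidase, with a ratio of 2.31, Unc5cl with 2.73, Ncald, a neuronal calcium sensor, with 2.11, and the unnamed genes Gm31698 with 3.05 and Gm43305 with 2.11. The last is one of 2 that rest on few cells. A single clone cell held 509 of the 1693 UMIs of Gm43305, and without the highest cell of each group its ratio was 1.51. Il4i1, an amino acid oxidase, was at 32.6 against 11.7 CPM, but 1 clone cell held 75 of its 97 UMIs, and without the highest cells its ratio was 0.765. Without those cells 9 of the 12 genes still passed the fold, the other exception being Ncald with 2.08. Against other clones of at least 5 cells the log2 ratios of Ncald, Lcp2 and Gm31698 fell to 0.48, 0.83 and 0.91, from 1.08, 1.43 and 1.61. The log2 ratio of Rab20 was 1.19 by the mean over cells and 1.07 after thinning, from 1.81.

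Of the 12 genes, 9 were above all 4 other large clones. Over all measured genes this holds for 10.5%, but these 12 were chosen as high in the clone, so nothing is read from that. Of the 12 lower genes below, chosen in the same way, 4 were below all 4 clones (Gpx3, Ccnb2, 2610035D17Rik and 4930481A15Rik), beside 6.91% of all genes.

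Among the genes lowest in the clone, several act in division. Rrm2, the small subunit of ribonucleotide reductase, was at 38.7 CPM in the clone and 102 in the others, 2.64-fold lower (2.16 to 3.25). Cdk1, the mitotic kinase, was at 9.08 against 28.6 CPM, Ccnb2, its cyclin partner, at 8.07 against 22.6 CPM, and Pclaf, which binds the replication clamp PCNA, at 25.9 against 72.9 CPM. Hist1h2ap, a histone H2A gene, was at 8.74 against 35.8 CPM, and its reads may be shared with near-identical histone genes. The large clones differed widely in Rrm2, which was at 27.4, 258, 399.9 and 34.0 CPM in the clones of IGHV3-5, IGHV1-80, IGHV1-82 and IGHV6-3. For 4 of these 5 genes the value rests on the largest cells: without the 6% of cells with most UMIs the log2 ratios were -0.58 for Rrm2, -0.56 for Cdk1, -0.05 for Hist1h2ap and -0.03 for Pclaf, where -1.40, -1.65, -2.03 and -1.49 had been found. That of Ccnb2 was -2.06, from -1.48.

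The other genes of the 12 were Ebf1 and 6 more. Ebf1, the transcription factor that sets B cell identity, was at 13.4 CPM in the clone and 37.9 in the others, 2.82-fold lower (2.01 to 4.04), with 0 to 21.9 CPM in the other large clones. Wls, the carrier of Wnt proteins to the cell surface, was at 6.05 against 23.0 CPM, 3.81-fold lower (2.33 to 6.60). Ggh, a folate hydrolase, was at 20.2 against 58.7 CPM and Gpx3, a secreted glutathione peroxidase, at 9.08 against 23.6 CPM. Ly6k, a surface protein of the Ly6 family, was at 35.0 against 118 CPM. Ggh and Ly6k were higher in free RNA than in either group, at 80.1 and 150 CPM. The noncoding genes 2610035D17Rik and 4930481A15Rik completed the set, at 7.73 against 24.6 CPM and 6.05 against 23.3 CPM. All 12 lower genes passed the fold without the highest cell of each group. Without the 6% of cells with most UMIs the log2 ratios of Ly6k and Gpx3 were -0.67 and -0.49, from -1.76 and -1.38, and against other clones of at least 5 cells those of Ebf1 and Ggh were -0.25 and -0.69, from -1.50 and -1.54. By the mean over cells that of Ggh was -0.94.

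**Figure D4:**
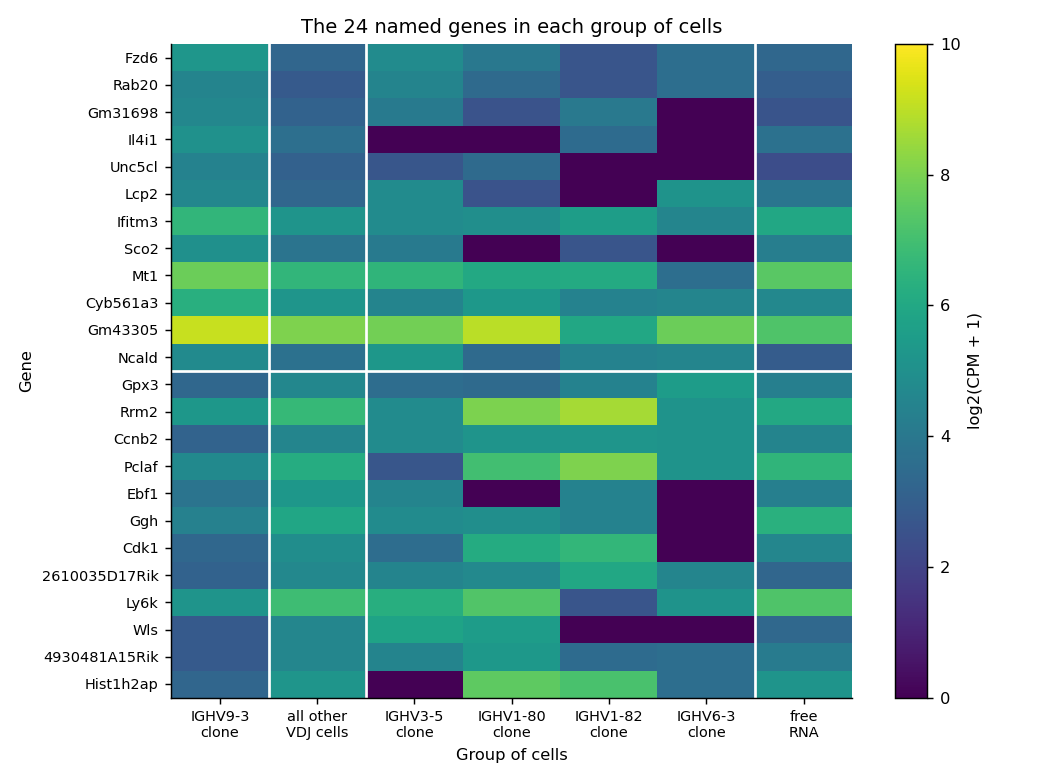
Colour gives log2(CPM + 1) of the 24 named genes (rows) in the IGHV9-3 clone, all other VDJ cells, the 4 other clones of at least 20 cells and free RNA (columns); the 12 genes higher in the clone stand above the white line. In their rows Mt1 and Ifitm3 are brightest in the clone and next in free RNA, and Rrm2 and Pclaf are brightest in the IGHV1-80 and IGHV1-82 clones.

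Among other called genes, picked after their values were seen, several encode surface or secreted proteins. Ly6c2 was at 290 CPM in the clone and 630 in the other VDJ cells, 2.17-fold lower (2.02 to 2.34), while the other large clones, at 243 to 358 CPM, lay with the clone. Slpi, a secreted protease inhibitor, was at 1404 against 2664 CPM, 1.90-fold lower. Against the other cells with IGHM, at 1486 CPM, its ratio was 0.945, and the other large clones held 952 to 4189 CPM. Cd93, a surface receptor tied to plasma cell survival, was at 73.3 against 148 CPM. Gm30211 was at 3639 against 2142 CPM, the highest gene called, but it overlaps an immunoglobulin gene at chr6:70719074-70740554, in the kappa locus, so its reads may belong to kappa transcripts. It was the 1 gene of the 124 called that overlapped one.

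The cell cycle lists were lower in the clone. None of the 38 measured S phase genes had a ratio above 1, and 6 were called lower. None of the 39 measured G2 and mitosis genes had one, and 13 were called lower, beside 1.01% of all genes. The summed level was 815 CPM in the clone and 1269 in the others for S phase, 1.56-fold lower (1.49 to 1.63), and 1039 and 1732 CPM for G2 and mitosis, 1.67-fold lower (1.60 to 1.74). The medians of the log2 ratios were -0.73 and -0.98, beside -0.05 over all genes. Top2a, which untangles chromosomes, was at 82.7 against 168 CPM and Mki67, the proliferation marker, at 221 against 341 CPM. The other large clones spanned 640 to 2799 CPM for S phase and 706 to 3272 for G2 and mitosis, so the clone lay near their lower end. Without the 6% of cells with most UMIs the log2 ratios of the sums were -0.37 and -0.53, from -0.64 and -0.74, and by the mean over cells they were -0.34 and -0.34. Free RNA held 1012 and 1400 CPM.

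Counted per cell at equal depth, the clone and the others were close. After each cell was thinned to 1000 UMIs, 148 of 792 clone cells had at least 3 UMIs of the 2 lists (18.7%, 16.0 to 21.6%) and 349 of 1664 others (20.97%, 19.0 to 23.0%), with 50 and 124 shallower cells left out. Unthinned the shares were 71.0% and 69.4%. The intervals overlap. In cells with an estimated free RNA share under 50% they do not, with 14.8% of the clone (12.1 to 17.8%) and 20.8% of the others (18.9 to 22.9%). At 10 or more UMIs, a limit set after the distribution was seen, they also do not: 12 of 792 clone cells (1.52%, 0.785 to 2.63%) and 69 of 1664 others (4.15%, 3.24 to 5.22%) reached it. At that limit the cells under 50% free RNA gave 1.91% and 4.41%. In the other large clones it was reached by 0 of 50, 2 of 45, 5 of 39 and 1 of 26 cells. Free RNA held genes of both lists, so a cell with a few such UMIs need not be cycling.

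**Figure D5:**
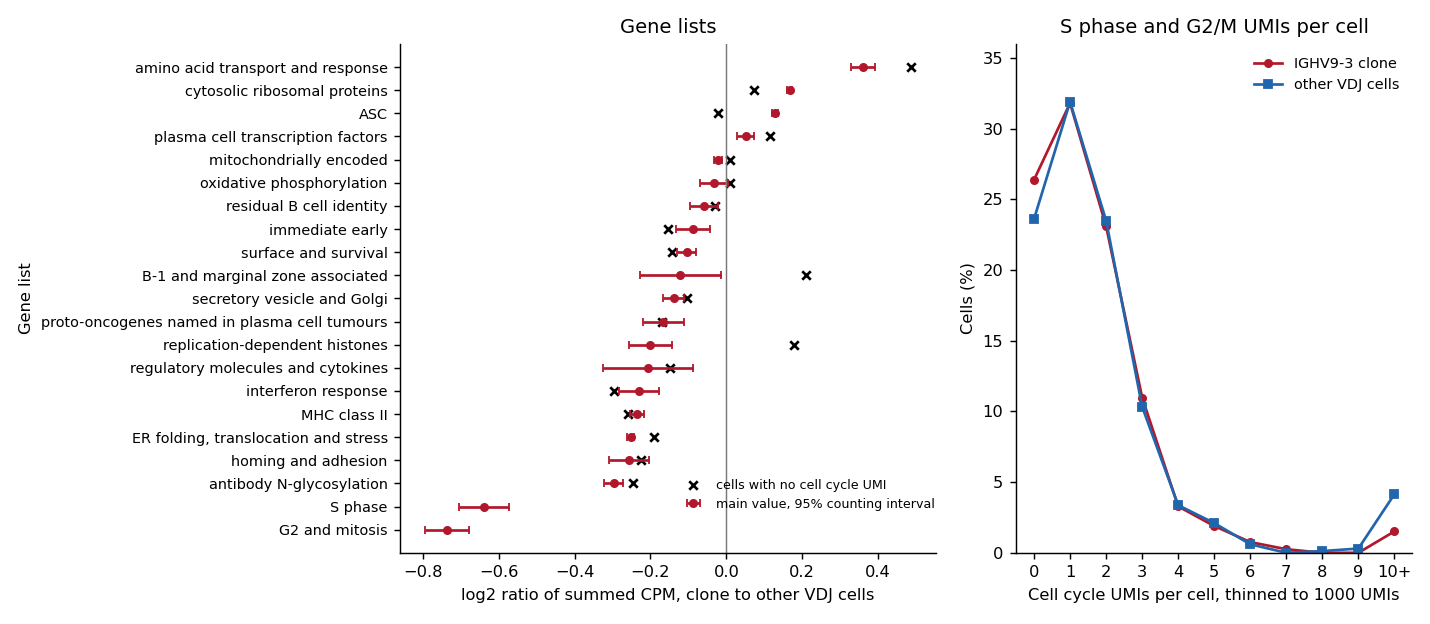
Left: log2 ratio of summed CPM, clone to other VDJ cells, for each gene list (red, with 95% counting intervals), and the same in cells with no cell cycle UMI after thinning to 1000 UMIs (crosses, not drawn for the cell cycle lists themselves); the cell cycle lists are lowest and amino acid transport is highest. Right: percent of cells by UMIs of the S phase and G2 and mitosis lists after thinning to 1000 UMIs; the curves are close from 1 to 9 UMIs and part at 10 or more, 1.52% in the clone and 4.15% in the others.

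Genes of antibody folding and glycosylation were lower in the clone by small ratios. Of the 42 measured genes of folding, translocation and stress in the endoplasmic reticulum, 34 had a ratio below 1, beside 5366 of 9317 over all genes, and none was called. The summed level was 52876 CPM in the clone and 62988 in the others, 1.19-fold lower (1.18 to 1.20). The chaperones Hsp90b1 and Hspa5 were at 10932 against 15639 and at 2498 against 3526 CPM. Genes of antibody N-glycosylation summed to 6430 against 7903 CPM, with 13 of 14 below 1 and none called. The other large clones held 47496 to 78395 CPM of the first list, which spans the clone, and from 6523 CPM up of the second, all above it. Against other IgM cells the ratios of the 2 lists were 0.879 and 0.825.

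Amino acid transport and response genes ran the other way. Of 13 measured, 11 had a ratio above 1 and none was called. The summed level was 4208 CPM in the clone and 3277 in the others, a ratio of 1.28 (1.26 to 1.31), against 1.18 beside other IgM cells. The first ratio passed the smaller fold set for lists and the second did not. From 0.36, the log2 ratio fell to 0.31 against other clones of at least 5 cells. Without the 6% of cells with most UMIs it was 0.26, and by the mean over cells and after thinning 0.25. These values also missed that fold. It rose to 0.44 under 50% free RNA, 0.44 with free RNA subtracted and 0.49 with no cell cycle UMI. Slc3a2, the heavy chain of several amino acid transporters, was at 2541 against 1742 CPM and Asns, asparagine synthetase, at 145 against 92.4 CPM. Cytosolic ribosomal proteins had 77 of 83 genes above 1 and a summed ratio of 1.12 (1.12 to 1.13). The other large clones spanned 2400 to 4266 CPM for the first list and 52071 to 102080 for the second, and the clone lay inside both.

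MHC class II genes, which B cells lose as they become plasma cells, were below 1 in 8 of 8 measured, none called, with 10952 against 12885 CPM, inside the 10611 to 14722 CPM of the other large clones. H2-Ab1 was at 658 against 903 CPM and H2-Eb1 at 389 against 567 CPM. In the 4 other large clones H2-Ab1 was at 928 to 1313 CPM and H2-Eb1 at 691 to 758 CPM, so the clone was below each. Over all measured genes this holds for 6.91%, and the sum of the list lay inside the range, so nothing is read from these genes. Homing and adhesion genes were below 1 in 13 of 15, beside 5366 of 9317 over all genes, and Ccr9, a gut and thymus homing receptor with 5 UMIs in the clone, was among those called lower. Cxcr4, which draws plasma cells to bone marrow, was at 45.05 against 41.3 CPM, and Itga4 at 481 against 550 CPM.

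The called members of other lists are given by name, beside 0.322% of all genes called higher and 1.01% lower. Among surface and survival genes, Ly6c2, Ly6k and Cd93 were the 3 called of 23. Tnfrsf17, the survival receptor BCMA, was not called, at 267 against 198 CPM, and the other large clones held 67.9 to 181 CPM. No plasma cell transcription factor of 16 was called. Zbtb20, which supports lasting plasma cells, came nearest, at 796 against 527 CPM, a ratio of 1.51 (1.44 to 1.59), and the other large clones held 498 to 706 CPM. Interferon response genes had 2 called lower of 17, Gbp2 and Ifi27l2a, while Ifitm3 was not in that list. Of B-1 and marginal zone genes Ctla4 and Myof were called lower of 8, and of regulatory genes Tigit of 6.

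None of the 13 measured genes of the list of proto-oncogenes and related genes named in plasma cell tumours was called. Over all genes 0.322% were called higher and 1.01% lower, so nothing is read from that count. Cdkn2a, a cell cycle inhibitor that was not in that list and was picked after its value was seen, was called higher, at 30.6 against 14.9 CPM, a ratio of 2.05 (1.53 to 2.76). Myc was at 21.5 CPM in the clone and 13.1 in the others, 64 UMIs in the clone, with a ratio of 1.65 (1.17 to 2.31) whose interval reaches below the fold, and 0 to 19.8 CPM in the other large clones. Ccnd2 was at 175 against 221 CPM. Of the 5 measured macrophage markers 2 were called, in opposite directions, Lyz2 higher at 12.1 against 3.84 CPM and Apoe lower at 82.4 against 154 CPM. The 11 macrophage markers summed to 290 and 302 CPM. They held 862 UMIs in the clone, and 1 of the 11 was at 0. The part of other cells' RNA in Lyz2 and Apoe was not tested.

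Within the clone, the 66 filtered cells with another heavy sequence were set beside the 776 with the most frequent one. Several lists differed in summed CPM between them, and no interval was computed for these differences. Cell cycle genes of S phase summed to 1008 and 795 CPM, those of the endoplasmic reticulum to 65842 and 51551 CPM, and amino acid transport genes to 3670 and 4263 CPM. Of the genes chosen as high in the clone, Fzd6 was at 43.5 and 36.7 CPM, Mt1 at 196 and 218 CPM and Ifitm3 at 50.8 and 100.1 CPM. Rab20 was at 7.25 and 23.0 CPM, and Lcp2 and Il4i1 had no UMI in the 66 cells. There 1 UMI is worth 3.63 CPM, so the values of single genes rest on few UMIs. For Il4i1, 1 clone cell held 75 of the 97 UMIs, so its absence from the 66 cells shows little. Cells with at least 3 cell cycle UMIs were 7 of 60 (11.7%, 4.82 to 22.6%) and 141 of 732 (19.3%, 16.5 to 22.3%). These intervals overlap, and the shares run opposite to the S phase sums.

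The 9 bone marrow cells of the clone that passed the filter gave a small second look in another library, with 56593 UMIs, beside 1489 other bone marrow VDJ cells. Of the 12 genes higher in the spleen clone, 10 were above the others in these cells, beside 40.9% of all genes. Nothing is read from that count, since 1 UMI is worth 17.7 CPM here and most of the 12 had 1 to 3 UMIs. Ifitm3 and Sco2 were below the others, at 17.7 CPM against 50.8 and 17.7 CPM against 18.9, on 1 UMI each. Cyb561a3 was at 389 CPM against 69.1, on 22 UMIs, a ratio of 5.63 (3.50 to 8.61). How many of the 9 cells held these 22 UMIs was not tested. Mt1 was at 777 against 632, on 44 UMIs, and its interval, 0.893 to 1.65, spans equality. Of the 12 genes lower in the spleen clone all were lower, beside 59.1% of all genes, but 10 had no UMI, so at this depth their level was not measurable.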

How the data were processed

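Raw UMI counts per gene and barcode were deposited, per the file headers by Cell Ranger 6.0.2 (filtered lists) and 4 (all barcodes), and contig tables with UMI and read counts per contig. The submitters' processing notes name Cell Ranger 6.0.2 and mm10 or GRCm38. Germline segments and positions come from GRCm38 with GENCODE M21, whose gene identifiers match the files. The members and the gene lists were chosen with earlier results of these data known. Cells were kept with at least 200 genes, 500 UMIs outside the 392 immunoglobulin genes and under 10% mitochondrial UMIs. No doublet caller was run: barcodes with 2 heavy contigs (1) left the clone table, and leaving out the 6% of cells with most UMIs was an alternative. Counts were summed over cells and scaled to CPM outside immunoglobulin genes. Ratios carry exact conditional binomial 95% intervals and shares exact binomial ones (Python 3.11.15, scipy 1.17.1), and the code was tested on simulated data. The simulation drew summed counts without variation between cells, so it does not check the intervals of genes whose UMIs lie in few cells. No test across samples was possible with 1 library. PCR copies were collapsed by UMI.

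Named genes had at least 50 UMIs, at least 20 CPM in the clone or the others, a fold beyond 1.5 by the interval, and the same direction against other IGHM cells. The 12 with the largest and the 12 with the smallest ratio were taken, and any gene of a list could be named. The free RNA share of a cell is the share of its UMIs from light V genes outside its own light V family, divided by that share in barcodes outside the filtered list. Filtered and unfiltered matrices of the spleen library held equal values, so no free RNA had been removed. Thinning drew 1000 UMIs per cell without replacement. Base differences were counted without gaps. One gene of the lists is not reported here.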

Additional observations from a re-analysis of the deposited data

Results flagged for a closer look

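The clone's heavy CDR3 was found on 9940 of the 16405 heavy CDR3 contigs (60.6%) that lay on barcodes not called as cells in the receptor library labelled female spleen, data that no comparison used. These contigs were on 9851 barcodes, with a median of 24 UMIs and a highest value of 1760, and 2736 of the barcodes were in the filtered expression list. In the spleen receptor library labelled male, 0 of 6893 such contigs had it, which allows a share of up to 0.0435%.

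The rearrangement was also present in a library outside the main comparison: 10 cells of 1743 in the receptor library labelled female bone marrow, with the values given in the report. In the other 4 receptor libraries no cell had it.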

How the results depend on the processing

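Counting cells in other ways gave a clone of 711 to 1026 cells, the latter with 1 amino acid difference allowed in the CDR3. With contigs without a constant gene kept in the denominator the IgM share was 96.0% in the clone and 78.5% in the others, and by the expression library it was 87.2% in the others. The 30 higher and 94 lower genes became 18 and 48 against other clones of at least 5 cells, 6 and 11 with each cell thinned to 1000 UMIs, 11 and 39 at 200 UMIs and 9 and 26 at a fold of 2. Lower genes were 56 without the 6% of cells with most UMIs and 143 with the free RNA profile subtracted. In cells with no cell cycle UMI after thinning, an alternative chosen after seeing the data, 9 were higher (7 shared with the 30) and 20 lower (12 shared with the 94) of 6030 genes. Of the 24 named genes 14 passed the fold by the mean over cells, 7 after thinning and 7 with no cell cycle UMI.

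Over 15 alternatives the 24 named genes gave 360 log2 ratios, of which 287 kept their value within the main interval, 68 moved outside it and 5 reversed. Those were Il4i1 without the highest cells (-0.39) and, with no cell cycle UMI, Gm43305 (-0.13), Hist1h2ap (1.13), Cdk1 (0.37) and Rrm2 (0.11). The last 2 belong to the lists by which those cells were chosen. Of 315 list ratios 14 reversed. With no cell cycle UMI these were S phase (0.0401), B-1 and marginal zone (0.21), histones (0.18), mitochondrially encoded (0.00929) and ASC markers (-0.0230). Against clones of at least 5 cells they were residual B cell genes (0.0870), immediate early genes (0.0112) and mitochondrially encoded genes (0.0131). Histones reversed after thinning (0.0295) and by the mean over cells (0.00889), and mitochondrially encoded genes with no cell filter (0.00325), scaled by the median gene ratio (0.00701), under 50% free RNA (0.0749) and with free RNA subtracted (0.0115). Oxidative phosphorylation, whose interval spans equality, also changed sign, with values up to 0.117. With no cell cycle UMI, lists beyond the fold set for lists fell from 3 to 1. Leaving out the highest cell of each gene, the limit of 10 UMIs and the 711 cells under 50% free RNA were also chosen after seeing the data.

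Cells at or above a limit of cell cycle UMIs were 41.8% in the clone and 44.5% in the others at 2 UMIs. They were 4.42% and 7.27% at 5, and 1.52% and 4.15% at 10. At 3 UMIs they were 71.0% and 69.4% unthinned, 6.18% and 7.55% thinned to 500 UMIs, and 14.8% in the clone under 50% free RNA. Free RNA held 1012 CPM of S phase and 1400 CPM of G2 and mitosis genes, above the clone's 815 and 1039. A few such UMIs thus do not mark a cycling cell. No paired analysis was possible because the clone and the other cells come from 1 library. With 1 library no replicate could be left out. Depth limits the low genes, Wls for example with 18 clone UMIs, and the other large clones of 29 to 58 cells.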

Other observations

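Of the 8487 barcodes in the spleen expression list with no heavy contig in the receptor table, Ighv9-3 was the leading heavy V gene in 5645 (66.5%). Their median estimated free RNA share was 71.7%, against 24.5% in the clone, and their median depth 1067 UMIs outside immunoglobulin genes. Apoe was at 840 CPM in the 43 related cells that passed the filter, against 82.4 CPM in the clone and 154 CPM in the other VDJ cells. The 11 macrophage markers summed to 1051 CPM in the related cells and 290 in the clone. Whether few of the 43 cells held these UMIs was not tested.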
